A study of Homo sapiens with 6 samples.

Results

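A set of 10 genes of glycerophospholipid metabolism was followed here in the human lung adenocarcinoma cell line PC9 with and without knockdown of the RNA-binding protein RBM10. These 10 genes, of 16306 in the table, were chosen by name: PLD1 and GPD1L, which the study itself singled out among lipid genes from these same libraries, and 8 enzymes of the same route, GPD2, GPAM, AGPAT2, LPIN1, LPIN2, PLPP1, PLD2 and PLD3. All 10 passed the filter on low counts, which kept 12620 genes. PC9 carries an activating deletion in EGFR. The study compared cells given a nontargeting short hairpin RNA (sh-NC, 3 libraries) with cells given a hairpin against RBM10 (shRBM10, 3 libraries) by RNA sequencing. The labels do not name which RBM10 hairpin was used, all libraries come from 1 cell line, and nothing says that the 3 libraries of a group came from separate cultures, so the p-values below measure only the spread between these libraries. Of the shRBM10 libraries 2 carry no replicate number, and the 3 are called A, B and C here. The extraction text in the labels speaks of retinas, while the labels and the study give PC9 cells.

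Glycerophospholipids, the main lipids of cell membranes, are built on glycerol 3-phosphate. Fatty acids are attached to it in turn to give phosphatidic acid, which lies at a branch point: phosphatases remove its phosphate to give diacylglycerol, the precursor of phosphatidylcholine, phosphatidylethanolamine and triacylglycerol, and another branch leads through CDP-diacylglycerol to phosphatidylinositol and cardiolipin. Phospholipase D runs in the other direction, cutting phosphatidylcholine to release phosphatidic acid, which also acts as a signal for vesicle traffic and growth control.

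RBM10, the target of the hairpin, had normalized counts of 1431, 1183 and 1469 in sh-NC replicates 1 to 3, and of 537, 515 and 672 in shRBM10 libraries A, B and C. Normalized counts are deposited estimated counts scaled to a common library size. All 3 shRBM10 libraries were below all 3 sh-NC libraries (log2 fold change -1.24, standard error 0.23, edgeR adjusted p = 0.10). Total counts per library ran from 16606401 to 18864241. Features of the libraries bear on the values below. The library of sh-NC replicate 2 stood apart: its correlation of log2 levels with the other sh-NC replicates was 0.940 and 0.942, against 0.993 between those 2, and its median count per detected gene was 181 against 290 to 334 elsewhere. Fold changes followed the GC content of the transcripts. In the 4190 genes with the lowest GC content, between 31.3% and 44.5%, the median log2 ratio to the sh-NC mean was 1.10 in library A, 0.80 in library B and 0.12 in library C, and it was -0.22 in sh-NC replicate 2. Between the groups, the median log2 fold change was 0.69 in these genes and -0.32 in the 4190 with the highest GC content. Library C of shRBM10 lay closer to sh-NC replicates 1 and 3 (correlations of 0.982 for both) than to library A (0.948). What lies behind these differences was not tested. Epithelial markers were abundant in every library, with summed levels of 24775 to 45865 CPM (counts scaled to library size) for the 6 markers in sh-NC and 19797 to 28755 in shRBM10. EGFR was at 141 CPM in sh-NC replicate 2 and between 576 and 811 in the others. The 4 retinal markers measured summed to 0.671 to 0.938 CPM in sh-NC and 1.25 to 2.12 in shRBM10. The 5 endothelial markers summed to 5.44 to 10.2 in sh-NC and 2.68 to 3.75 in shRBM10, and PTPRC, which marks leukocytes, was below 0.4 in every library. The sum of the 5 leukocyte markers in the table, 104 to 184 in sh-NC and 99.9 to 129 in shRBM10, was almost all CD68. The 3 fibroblast markers in the table summed to 3.20 to 6.76 in sh-NC and 5.87 to 11.1 in shRBM10.

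In the fit over all libraries, 0 of the 10 genes passed an adjusted p of 0.05 with an absolute log2 fold change over 1, where 0.0158% of all genes tested did. Without adjustment, at p under 0.05 and past the same fold limit, 3 of the 10 were higher in shRBM10 (PLD1, GPD1L and GPD2) and 0 were lower, where 10.1% of all genes tested were higher and 1.53% lower. DESeq2, run on the same counts, called 2 of the 10, PLD1 and GPD1L, and 4.64% of all genes it tested. For 2 of the 10, again PLD1 and GPD1L, every shRBM10 library was above every sh-NC library. Among all genes tested 13.8% had groups that did not overlap in that direction and 16.2% in the other. Over the 10 genes the log2 fold change had a median of 0.21, against 0.03 over all genes tested. A positive value was found in 8 of the 10 and in 6514 of the 12620 genes tested. PLD1 and GPD1L had been singled out by the study from these same libraries. Their part in these counts and in this median is therefore no independent support. Without sh-NC replicate 2, 2 of the 10 were at the unadjusted limit in either direction, PLD1 and GPD1L, where 6.35% of all genes were, against 11.6% with all libraries. With the trend of each library on GC content removed, 1 of the 10 was at that limit, PLD1, where 4.65% of all genes were, and GPD1L, whose p stayed under 0.05, fell short of the fold limit.

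**Figure D1:**
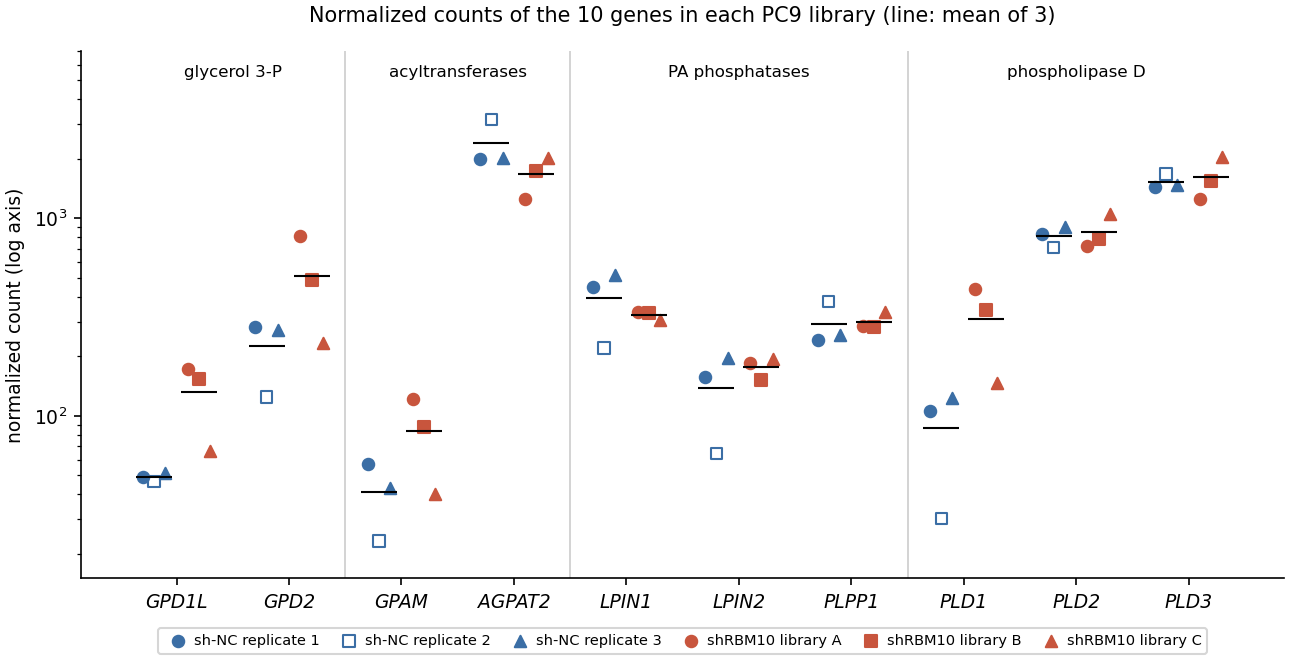
Normalized counts on a log axis of the 10 genes in each of the 6 libraries, ordered by role in glycerol 3-phosphate (glycerol 3-P) supply, acylation, phosphatidic acid (PA) dephosphorylation and phospholipase D. Blue symbols are sh-NC, with replicate 2 as open squares, red symbols are shRBM10, and black lines are the means of 3. The 3 red symbols lie above the 3 blue ones for GPD1L and PLD1 and for no other gene, and library C is the lowest red symbol in both.

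Levels of different genes are compared here per kilobase of the longest transcript, as normalized CPM. In sh-NC the order was AGPAT2 at 86.3 ± 24.3 (SD, n = 3), PLD3 at 38.2 ± 3.18, PLD2 at 12.7 ± 1.54, PLPP1 at 9.97 ± 2.54, LPIN1 at 3.77 ± 1.47, GPD2 at 2.04 ± 0.797, LPIN2 at 1.21 ± 0.590, PLD1 at 0.802 ± 0.460, GPD1L at 0.657 ± 0.033 and GPAM at 0.352 ± 0.145. Within each of the 3 libraries neighbors kept this order, except for PLD2 and PLPP1 and for PLD1 and GPD1L. Both pairs changed places in sh-NC replicate 2 and had overlapping ranges, so that they did not differ beyond their spread. Ranges also overlapped for LPIN1 and GPD2, GPD2 and LPIN2, and LPIN2 and PLD1, whose order held within each library. In shRBM10 the order of the means was AGPAT2 at 60.1 ± 13.8, PLD3 at 40.3 ± 9.98, PLD2 at 13.3 ± 2.63, PLPP1 at 10.2 ± 1.02, GPD2 at 4.61 ± 2.64, LPIN1 at 3.10 ± 0.152, PLD1 at 2.88 ± 1.38, GPD1L at 1.76 ± 0.766, LPIN2 at 1.54 ± 0.193 and GPAM at 0.714 ± 0.351. Between PLPP1 and GPAM this order changed with the library. In library C, LPIN1 (2.93) was above GPD2 (2.09), and LPIN2 (1.69) was above PLD1 (1.37) and GPD1L (0.888). In library A, PLD1 (4.07) was above LPIN1 (3.21). PLD1 was thus the scarcest of the 3 phospholipase D genes in both groups, and PLD3 the most abundant.

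The sequences below show where the genes with the largest fold changes have a RefSeq start, and which exons separate the transcripts whose shares are described further on. The 250 bases before the start that RefSeq gives on GRCh38.p14 are shown 5′ to 3′ on the gene's strand with each CG dinucleotide in capitals. GENCODE 29, whose gene spans are given further on, has transcripts of both genes that begin farther upstream, so these bases lie inside its spans. For PLD1 they lie at chr3:171810484-171810733 on the minus strand and for GPD1L at chr3:32106370-32106619 on the plus strand.
PLD1: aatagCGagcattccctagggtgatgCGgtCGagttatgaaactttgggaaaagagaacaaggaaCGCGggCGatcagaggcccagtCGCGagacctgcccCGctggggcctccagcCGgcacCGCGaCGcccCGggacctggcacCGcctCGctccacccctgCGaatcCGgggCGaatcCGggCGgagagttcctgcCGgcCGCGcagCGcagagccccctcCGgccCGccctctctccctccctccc
GPD1L: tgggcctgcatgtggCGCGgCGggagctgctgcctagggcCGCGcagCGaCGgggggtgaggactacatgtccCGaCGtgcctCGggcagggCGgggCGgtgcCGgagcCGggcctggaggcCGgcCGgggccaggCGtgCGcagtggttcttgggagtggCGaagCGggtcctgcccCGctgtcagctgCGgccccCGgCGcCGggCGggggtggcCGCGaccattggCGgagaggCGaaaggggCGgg
Both starts are rich in G and C although the transcripts are not. Over a window of 300 bases, 250 before and 50 after the start, PLD1 had 69.7% GC and 31 CG dinucleotides, and GPD1L 77.7% and 36, where the medians over 35116 RefSeq promoters were 58.7% and 14. Across the 9 members with a promoter in the RefSeq table, 0 of 14 promoters held the letters TCACNCCAC, a sterol response element, on either strand, which 1.13% of all promoters of this length hold.

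The next sequences are alternative coding exons, read from GENCODE 29 transcripts on GRCh38. The exon is in capitals and the 15 bases on each side, in lower case, are those joined to it in the spliced transcript. PLD1 exon 16 of 27 (chr3:171686685-171686798, minus strand, 114 bases) is in NM_002662 and absent from NM_001130081. AGPAT2 exon 4 of 6 (chr9:136676585-136676680, minus strand, 96 bases) is in NM_006412 and absent from NM_001012727. PLPP1 has a pair of alternative second exons, at chr5:55475299-55475450 (152 bases) in NM_003711 and at chr5:55490960-55491114 (155 bases) in NM_176895, both on the minus strand.
PLD1 exon 16: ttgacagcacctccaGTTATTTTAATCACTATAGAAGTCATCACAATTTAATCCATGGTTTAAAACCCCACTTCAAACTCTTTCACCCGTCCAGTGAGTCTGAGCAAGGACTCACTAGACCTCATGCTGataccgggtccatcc
AGPAT2 exon 4: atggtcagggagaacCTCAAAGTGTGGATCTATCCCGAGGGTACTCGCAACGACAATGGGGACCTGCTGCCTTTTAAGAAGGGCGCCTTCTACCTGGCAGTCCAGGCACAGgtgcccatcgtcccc
PLPP1 exon 2 of NM_003711: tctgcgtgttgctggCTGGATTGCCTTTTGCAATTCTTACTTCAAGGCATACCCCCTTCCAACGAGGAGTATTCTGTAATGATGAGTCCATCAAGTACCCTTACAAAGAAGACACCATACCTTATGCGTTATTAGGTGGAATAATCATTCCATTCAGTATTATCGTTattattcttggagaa
PLPP1 exon 2 of NM_176895: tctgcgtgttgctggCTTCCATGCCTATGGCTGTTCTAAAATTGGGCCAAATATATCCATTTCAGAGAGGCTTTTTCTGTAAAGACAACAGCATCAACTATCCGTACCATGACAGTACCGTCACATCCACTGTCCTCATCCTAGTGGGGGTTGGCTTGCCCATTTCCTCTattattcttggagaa
The PLD1 and AGPAT2 exons are multiples of 3 bases long, so leaving them out keeps the reading frame. The PLPP1 exons are flanked by identical bases and replace each other.

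Supply of glycerol 3-phosphate. GPD1L (gene ID 23171, chr3:32105689-32168713), a cytosolic protein related to the glycerol-3-phosphate dehydrogenase GPD1 and also known as a regulator of the cardiac sodium channel, was at 49.0, 46.6 and 51.4 normalized counts in sh-NC replicates 1 to 3. In shRBM10 libraries A, B and C it was at 173, 154 and 66.3. The sh-NC values lay close together and all below the lowest shRBM10 library, C, which was nearer to sh-NC than to A or B. The means were 49.0 ± 2.44 and 131 ± 57.2 (SD, n = 3), with an exact two-sided permutation p of 0.1, the smallest that 3 libraries against 3 can give. The log2 fold change was 1.42 with a standard error of 0.39 (edgeR adjusted p = 0.152; DESeq2 adjusted p = 0.0299). It was 1.30 without sh-NC replicate 2 and 0.89 with the GC trend removed. GPD2 (gene ID 2820, chr2:156435290-156613735), the mitochondrial glycerol-3-phosphate dehydrogenase that passes electrons to the respiratory chain, was at 282, 125 and 273 in sh-NC and at 816, 488 and 232 in shRBM10. Libraries A and B were above every control, and library C lay among the controls. Its log2 fold change was 1.17 with a standard error of 0.47 (edgeR adjusted p = 0.182), 0.79 without sh-NC replicate 2 and 0.38 with the GC trend removed. Glycerol kinase, GK, the other gene of this list to be tested, had a log2 fold change of 0.30, and of -0.47 with the GC trend removed.

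Acyltransferases. GPAM (gene ID 57678, chr10:112149864-112215377), the mitochondrial enzyme that attaches the first fatty acid, was at 57.1, 23.3 and 43.3 normalized counts in sh-NC and at 122, 88.1 and 40.3 in shRBM10. As for GPD2, libraries A and B were above all controls and library C was not. The log2 fold change was 1.00 with a standard error of 0.46 (edgeR adjusted p = 0.213), 0.64 without sh-NC replicate 2 and 0.25 with the GC trend removed. AGPAT2 (gene ID 10555, chr9:136673143-136687423), which attaches the second fatty acid and is mutated in a congenital lipodystrophy, was at 1987, 3175 and 2031 in sh-NC and at 1259, 1734 and 2019 in shRBM10. The highest value was that of sh-NC replicate 2, and library C lay between sh-NC replicates 1 and 3. The log2 fold change was -0.52 with a standard error of 0.28 (edgeR adjusted p = 0.256), and it was -0.34 without sh-NC replicate 2 and -0.19 with the GC trend removed. Of the 10 genes listed for these acylation steps, both members included, all were tested, 5 had positive and 5 negative log2 fold changes, and 0 were called.

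Phosphatidic acid phosphatases. LPIN1 (gene ID 23175, chr2:11677595-11827409), a lipin that makes diacylglycerol and also acts with nuclear transcription factors, was at 447, 220.5 and 514 normalized counts in sh-NC and at 336, 332 and 306 in shRBM10. The shRBM10 libraries lay close together, below sh-NC replicates 1 and 3 and above replicate 2. The log2 fold change was -0.28 with a standard error of 0.33 (edgeR adjusted p = 0.587). Without sh-NC replicate 2 it was -0.65 (edgeR adjusted p = 0.144) and the groups no longer overlapped. In that setting 28.5% of all genes had groups that did not overlap and were lower in shRBM10. With the GC trend removed as well, a combination chosen after seeing the data, the log2 fold change was -0.76 (edgeR adjusted p = 0.0161). This was short of the limit of 1. LPIN2 (gene ID 9663, chr18:2916994-3013315), a second lipin, mutated in Majeed syndrome, was at 157, 64.4 and 196 in sh-NC and at 185, 151 and 193 in shRBM10. Only sh-NC replicate 2 lay apart from the other libraries. The log2 fold change of 0.34, with a standard error of 0.39, turned to -0.08 without that replicate. PLPP1 (gene ID 8611, chr5:55424854-55535050), a membrane phosphatase that acts on phosphatidic and lysophosphatidic acid at the cell surface, was at 242, 378 and 257 in sh-NC and at 283, 282 and 334 in shRBM10. The groups overlapped, with the highest value in sh-NC replicate 2. Its log2 fold change of 0.04, with a standard error of 0.28, was 0.18 without that replicate and took either sign across settings. Of the 9 genes listed for this step 8 were tested, members included, with 5 positive and 3 negative values and 0 called.

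Phospholipase D. PLD1 (gene ID 5337, chr3:171600405-171810950), which is activated by ARF GTPases and protein kinase C, had the largest log2 fold change of the 10. It was at 105, 30.1 and 124 normalized counts in sh-NC and at 438, 345 and 147 in shRBM10. All shRBM10 libraries lay above all controls, with library C close to sh-NC replicate 3 and sh-NC replicate 2 far below the other controls, at 22 counts. The means were 86.3 ± 49.5 and 310.1 ± 149 (SD, n = 3), with an exact two-sided permutation p of 0.1. The log2 fold change was 1.83 with a standard error of 0.54 (edgeR adjusted p = 0.153; DESeq2 adjusted p = 0.0171), and 99.3% of genes tested had a lower value. It was 1.35 without sh-NC replicate 2, 1.13 with the GC trend removed (edgeR adjusted p = 0.227) and 0.81 with both. Over 17 alternative settings the log2 fold change of PLD1 ran from 0.81 to 2.17 and that of GPD1L from 0.82 to 1.69.

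PLD2 (gene ID 5338, chr17:4807096-4823434), the plasma membrane enzyme of the same reaction, was at 835, 711 and 906 normalized counts in sh-NC and at 727, 789 and 1046 in shRBM10. PLD3 (gene ID 23646, chr19:40348456-40380439), a lysosomal family member that degrades single-stranded nucleic acids rather than phosphatidylcholine, was at 1441, 1676 and 1473 in sh-NC and at 1255, 1545 and 2045 in shRBM10. Both overlapped between groups, and in both the highest value was that of library C and the lowest of the shRBM10 group that of library A, the reverse of the order in PLD1. The log2 fold changes were 0.06 with a standard error of 0.24 for PLD2 and 0.08 with a standard error of 0.24 for PLD3. Both turned negative without library C, at -0.16 and -0.17. With the GC trend removed they were 0.30 and 0.38 and neither gene's groups overlapped. In that setting 13% of all genes had groups that did not overlap and were higher in shRBM10. PLD2 was also negative, at -0.11, without sh-NC replicate 2.

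**Figure D2:**
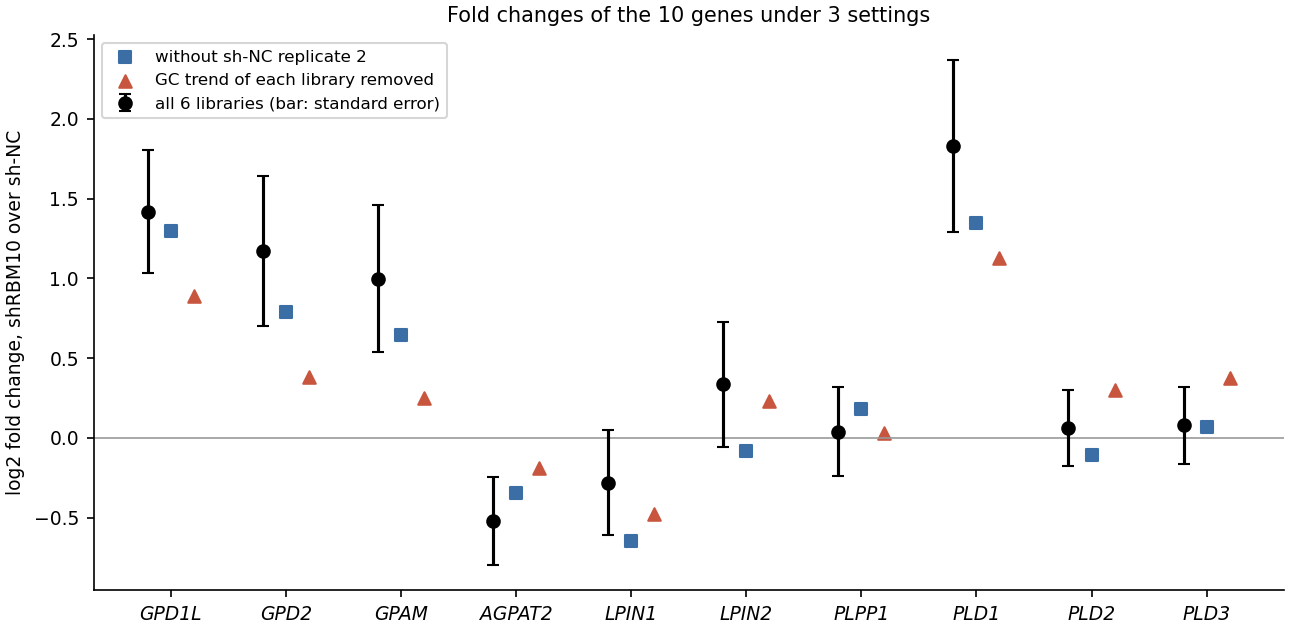
Log2 fold change of shRBM10 over sh-NC for the 10 genes with all 6 libraries (black, bars are standard errors), without sh-NC replicate 2 (blue squares) and with the trend of each library on GC content removed (red triangles). PLD1 and GPD1L stay above 0.8 in all 3 settings, GPD2 and GPAM are at 0.38 and 0.25 with the trend removed, and LPIN2 and PLD2 cross 0.

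The 4 genes with the largest fold changes were also the 4 with the lowest GC content in their longest transcript: PLD1 at 41.7%, GPD1L at 44.3%, GPD2 at 40.3% and GPAM at 41.0%. LPIN1, LPIN2 and PLPP1 were at 47.5%, 48.9% and 50.3%, and PLD2, PLD3 and AGPAT2 at 58.4%, 63.4% and 65.9%. Across these 10 genes, which share the 6 libraries, Pearson's r of the log2 fold change with GC content was -0.77, and across 12570 genes tested with a GC value it was -0.59. Both are descriptions across genes, which are not independent replicates. Removing the trend lowered the log2 fold changes of all 4 of these genes, to 1.13 for PLD1, 0.89 for GPD1L, 0.38 for GPD2 and 0.25 for GPAM. The median over the 10 genes was 0.28 after removal, against -0.05 for all genes tested.

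**Figure D3:**
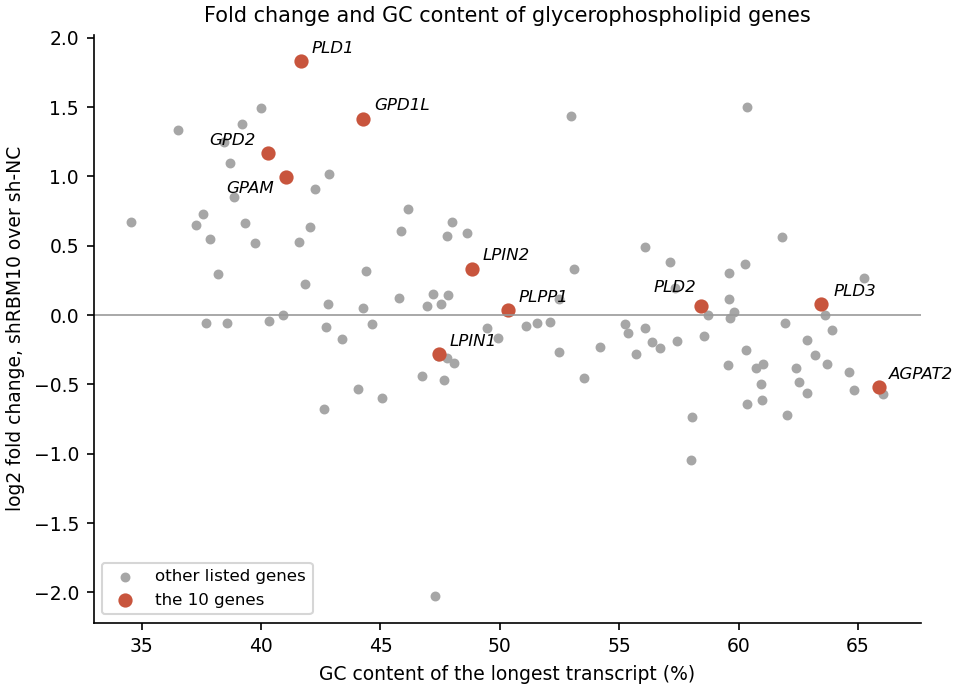
Log2 fold change of shRBM10 over sh-NC against the GC content of the longest transcript for the 10 genes (red, named) and the other listed glycerophospholipid genes (gray). The 4 named genes with a GC content under 45% have the 4 largest values, and AGPAT2, the named gene with the highest GC content, has the lowest value.

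RBM10 regulates splicing, so the split of each member between its annotated transcripts was tested as well. Of the 10 genes 6 had at least 2 transcripts that could be tested (PLD1, PLD3, GPD2, AGPAT2, LPIN1 and PLPP1). For 0 of the 6 did transcript usage differ at an adjusted p of 0.05, where 0.0958% of 8348 genes did, and 0 of the 6 had an unadjusted p under 0.05, where 2.78% did. The smallest p of the 6 was 0.853, for PLPP1 (edgeR). Fewer of all genes reached an unadjusted p under 0.05 than that limit itself allows, so the test was cautious here. The 0 of 6 therefore does not show that usage was unchanged. In PLD1, the long form NM_002662, with exon 16, took 34.7%, 0% and 33.5% of the counts of the long and short forms together in sh-NC, against 18.6%, 52.7% and 33.5% in shRBM10. The libraries of each group thus spread more widely than the groups differed. In sh-NC replicate 2 the share was 0 of 15.7 estimated counts, which allows a share of up to 19.1%, counting error only, and the shares rested on 79.3 to 320.3 counts of both in the others. In AGPAT2, with far more counts, NM_006412, with exon 4, took 94.4%, 90.7% and 92.1% of the gene's counts in sh-NC, against 93.0%, 90.4% and 93.5% in shRBM10. In PLPP1, NM_003711 took 66.4% to 83.0% in sh-NC and 68.0% to 74.5% in shRBM10, and NM_176895, with the other exon 2, 3.92% to 8.56% and 7.25% to 13.9%. XM_006714724 held the rest, 10.5% to 25.05% and 16.8% to 21.0%. Shares of a transcript are the deposited estimates of how reads divide between overlapping transcripts, and they can switch where reads cannot tell forms apart: GPAM counts were 97.3% NM_020918 in sh-NC replicate 1 and 100% NM_001244949 in the other libraries, and LPIN2 counts were 83.2% to 100% NM_001375808 in 5 libraries and 100% NM_001375809 in sh-NC replicate 2. The largest shares of the other LPIN2 forms were 16.8% for NM_014646 and 11.1% for XM_017026098, each in 1 library. In GPD1L, NM_015141 held 86.3% to 100% and XM_006713068 at most 13.7%. PLD2 was at least 96.9% NM_002663 in every library. The short PLD1 form NM_001130081 held 37.3% to 71.5% of all PLD1 counts and XM_017006623 held 15.8% to 35.9%. In PLD3, XM_005258704 held 62.0% to 67.6% and XM_005258708 4.32% to 13.3%.

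GPD2 and LPIN1 were split among many forms. NM_000408, the largest GPD2 form in most libraries, held 28.9% to 77.2% and NM_001083112 8.59% to 25.6%. The GPD2 forms XM_005246469, XM_011510977 and XM_017003830 were at 0 in some libraries and reached 42.6%, 33.98% and 12.6% in others. In LPIN1, NM_001349206 held 10.4% to 28.2%, NM_145693 3.27% to 25.9%, NM_001349203 8.95% to 15.7% and NM_001349204 1.52% to 15.9%. The LPIN1 forms NM_001349199, XM_011510334, XM_017003623, XM_017003624, XM_017003630 and XM_024452762 were at 0 in at least 1 library and reached at most 18.4%.

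**Figure D4:**
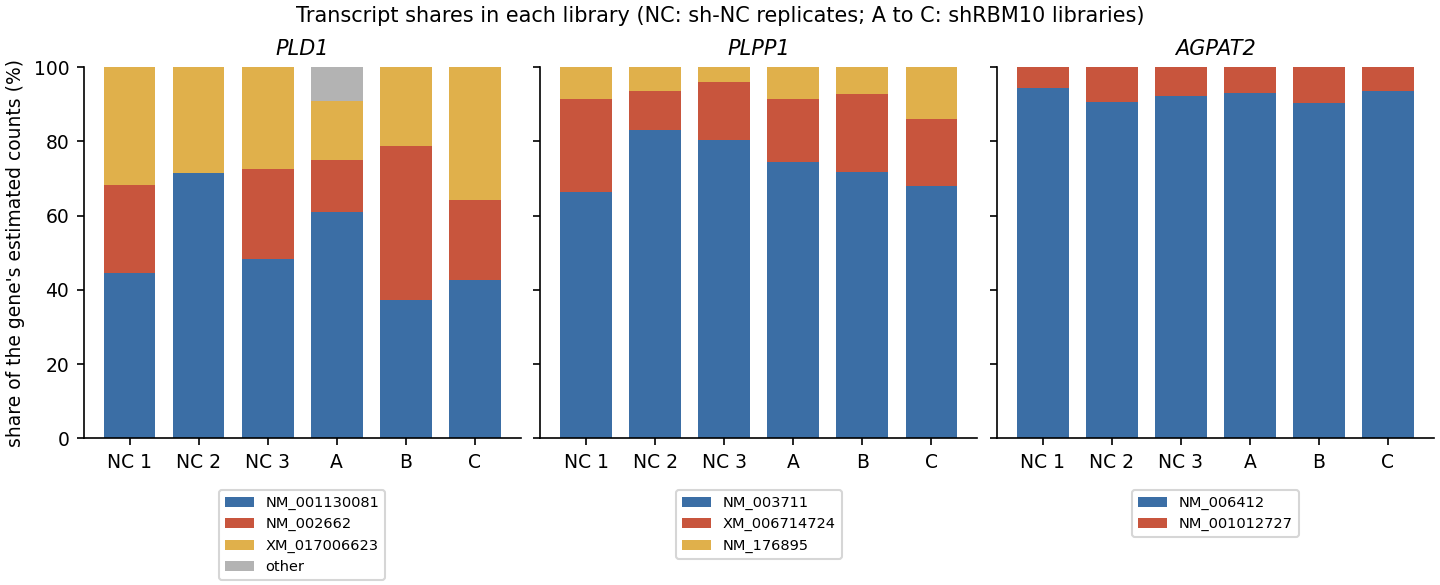
Share of the estimated counts of PLD1, PLPP1 and AGPAT2 held by each transcript, in percent, in the 3 sh-NC replicates (NC 1 to NC 3) and shRBM10 libraries A, B and C. For AGPAT2 the bars barely differ, with NM_006412 between 90.4% and 94.4%, while the PLD1 form NM_002662 runs from 0% to 41.5% without separating the groups.

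Around the 10 genes, 122 further genes of the route were listed in 14 groups by role, of which 117 were in the table and 100 tested. Of these 100 genes 47 had positive and 53 negative log2 fold changes, with a median of -0.05. By edgeR 0 were called, and 7 were at an unadjusted p under 0.05 with an absolute log2 fold change over 1, 6 higher and 1 lower. DESeq2 called 3 of them. For comparison, 10.1% of the 12620 genes reached that limit upward and 1.53% downward, and DESeq2 called 4.64% of those it tested. The 6, 1 and 3 of these 100 genes were thus no more than the share in the whole table, and a difference from that share was not tested. The gene with the smallest p was named for each group that had one at the unadjusted limit. SELENOI, which makes phosphatidylethanolamine from CDP-ethanolamine, was at 701, 597 and 641 normalized counts in sh-NC and at 2456, 1446 and 713 in shRBM10 (log2 fold change 1.25, standard error 0.39, edgeR adjusted p = 0.155; DESeq2 adjusted p = 0.0441). As in PLD1 and GPD1L, library A was the highest, then B, then C, which lay just above the controls, and its log2 fold change was 0.39 with the GC trend removed.

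LPGAT1, which acylates lysophospholipids, was at 663, 299 and 664 in sh-NC and at 1703, 1150 and 636 in shRBM10, so that library C fell among the controls. PLCB4, a phospholipase C, was at 22.7, 12.3 and 13.5 in sh-NC and at 57.5, 54.6 and 16.3 in shRBM10, with the same overlap. PLA2G4C, a cytosolic phospholipase A, was at 14.5, 12.3 and 8.12 in sh-NC and at 28.7, 39.3 and 26.9 in shRBM10. Here library C stood with A and B, above all controls, and the log2 fold change of 1.44 (standard error 0.37, edgeR adjusted p = 0.144) was 1.56 with the GC trend removed. The others at the unadjusted limit, named after their values were seen, were PNPLA8 (log2 fold change 1.34) and GPCPD1 (1.49), both also called by DESeq2, and PLCB2, the 1 lower gene (-1.04). With the GC trend removed these values were 0.61, 0.73 and -0.79, and those of LPGAT1 and PLCB4 were 0.34 and 0.58.

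The groups by role did not share a direction, and several counts of positive values changed with the GC trend removed. Over all genes tested 6514 of 12620 were positive, and 5739 of 12570 with the trend removed. Members included, all 3 tested genes of glycerol 3-phosphate supply were positive, and 2 with the trend removed. Of the phospholipase D family 5 of 5 were positive, and 4 with the trend removed. Phospholipases A and lysophospholipases had 11 positive of 19, and 10 with the trend removed. The CDP-diacylglycerol branch had 2 positive of 7, with a median of -0.36, and 1 with the trend removed, with a median of -0.32. The phosphatidylserine branch had 0 positive of 3, and 1 with the trend removed. The diacylglycerol kinases had 3 positive of 8 and the acyl chain remodeling enzymes 5 of 9, and with the trend removed 1 and 6. Phospholipases C had 4 positive of 9 and the diacylglycerol acyltransferases 0 of 2, and with the trend removed 6 and 2. The choline and ethanolamine branch, with 4 positive of 10, and lysophosphatidic acid signaling, with 2 of 3, had the same counts in both settings. The activators of PLD1, small GTPases, protein kinase C and the kinases that make its cofactor phosphatidylinositol 4,5-bisphosphate, had 6 positive of 14 tested, a median of -0.08 and 0 called. With the GC trend removed 2 of the 14 were positive, with a median of -0.35, against -0.05 over all genes tested.

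**Figure D5:**
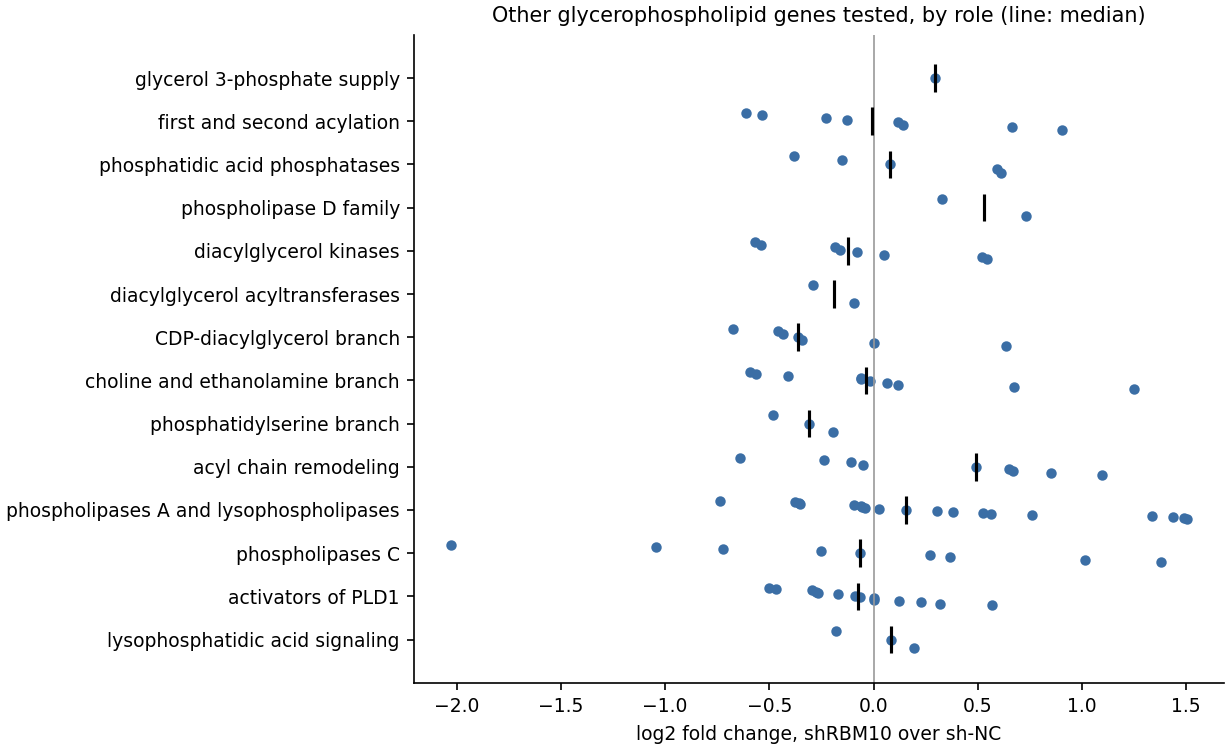
Log2 fold change of shRBM10 over sh-NC for the 100 tested glycerophospholipid genes other than the 10, in 14 groups by role, with a black line at each group's median. Values lie on both sides of 0 in most groups, and the highest belong to phospholipases A and lysophospholipases.

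The genes whose log2 levels over the 6 libraries were most like those of PLD1, among 11070 genes with a mean count of at least 50, were SCRN1 and IMPACT (Pearson's r 0.999 each) and PKD2 (0.999). For GPD1L they were GPX8 (1.00), FASTKD3 (0.999) and FAM98A (0.998). FAM98A, for example, was at 203, 177 and 213 normalized counts in sh-NC and at 790.5, 651 and 272 in shRBM10, with the falling order from A to C that GPD1L has. These 6 libraries share depth and the GC trend described above, and the values of r are descriptions.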

How the data were processed

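PC9 libraries of 2 groups, 3 sh-NC and 3 shRBM10, were compared. Per the labels, polyadenylated RNA was sequenced, and the study names BGI-Tech for the RNA sequencing. The extraction text in the labels names 2 library kits. The authors deposited estimated counts per gene and per transcript, where 87.5% of gene values and 41.1% of transcript values are whole. The build per the labels is hg38, and the aligner and counter are not given in the sources used here. Per table, 18 per-sample columns of other measures and 8 group-mean columns were not used. 2 shRBM10 columns match no sample title and were used by group.

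Estimated counts were rounded to whole numbers, kept by filterByExpr, scaled by TMM (trimmed mean of M values) and tested with the quasi-likelihood test of edgeR 4.0.16 in R 4.3.3, with Benjamini-Hochberg adjustment over all 12620 genes. Genes were called at an adjusted p below 0.05 where the log2 fold change exceeded 1 in size. For transcript usage, diffSpliceDGE of edgeR gave Simes p-values. Totals of 16606401 to 18864241 counts leave genes such as GPAM at under 130 counts a library. GC content and length came from the longest basic GENCODE 29 transcript, for 99.6% of genes, and trends were removed as natural splines with 5 degrees of freedom. Alternatives were DESeq2 1.42.0, limma-voom 3.58.1, other scalings and filters, GC offsets and leaving out each library. The scripts were tested on simulated data. The members and lists were chosen with earlier results of these data known. The text names all members, RBM10, the gene with the smallest p of each list that had one at the unadjusted limit, the 3 genes most like PLD1 and GPD1L over the 6 libraries, and transcripts with at least 10% of a member's counts in any library, besides the AGPAT2 form that lacks exon 4.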

Additional observations from a re-analysis of the deposited data

How the results depend on the processing

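No paired analysis was possible because only shRBM10 library A can be matched to a replicate number, so the groups share fewer than 2. Under every edgeR and limma-voom setting tried, 0 members were called, against 2 by DESeq2 (PLD1 and GPD1L) and 3 at an unadjusted p. The count of 3 at an unadjusted p (11.6% of all genes) became 1 with GC (4.65%), GC and length (4.34%) or mean GC (4.59%) trends removed. It was 0 with the GC trend removed and sh-NC replicate 2 left out (3.39%). That combination and mean GC were chosen after seeing the data. The count was 2 to 4 when leaving out 1 library (4.51% to 16.8%). It was 2 without sh-NC replicate 2 (6.35%), shRBM10 library A (4.51%) or B (8.31%). With the GC trend removed, genes at that limit over the whole table numbered 270 higher and 314 lower, against 1272 and 193 with no such correction. Other glycerophospholipid genes called rose from 0, where 2 of all 12620 genes were called, to 3 by DESeq2 (SELENOI, PNPLA8 and GPCPD1). DESeq2 called 4.64% of all genes it tested. They rose to 7 unadjusted, where 11.6% of all genes were. The count was 1 without sh-NC replicate 1 (PLA2G4B), where 5 of 12741 genes were called, with 0 to 1 over the leave-one-out fits. With the GC trend removed and sh-NC replicate 2 left out it was 3 (PLA2G4C, PLCB1 and PLA2G4A). In that setting 277 of 12742 genes were called. PLCB1 and PLA2G4A were named after their values were seen. Neither PLCB1 nor PLA2G4A passed the low-count filter with all 6 libraries. For PLCB1, control replicates 1 to 3 held 1, 1 and 1 estimated reads, and libraries A to C held 20, 14 and 4. For PLA2G4A the values were 3, 3 and 1 against 27, 21 and 8. With controls this low, both genes passed the filter in that setting only through shRBM10 libraries. A higher value in shRBM10 was thus built into their entry, and their calls are no support. PLA2G4B stood at 38, 0 and 0 against 41, 37 and 28, so the replicate left out was the only control with any. Members with groups that do not overlap, in either direction, numbered 2 of 10 with all libraries (30.1% of all genes), 4 with library size only (27.2%), 4 with the GC trend (30.3%) or the mean GC trend (30.6%) removed, 6 with GC and length trends removed (36.3%), 6 with the GC trend removed and sh-NC replicate 2 left out (49.9%), and 2 to 5 when leaving out 1 library (32.5% to 63.5%), with 5 when sh-NC replicate 2 (46.8%) or library C of shRBM10 (63.5%) was left out. The cause was not tested. PLD1 and GPD1L did not overlap in any edgeR setting. Signs turned for members near 0: PLD2 was -0.16 to 0.17 when leaving out 1 library (-0.11 to 0.14 over sh-NC replicates, -0.16 without library C), PLD3 -0.17 to 0.23 (-0.17 without library C), LPIN2 -0.082 to 0.66 (-0.082 without sh-NC replicate 2) and PLPP1 -0.084 to 0.18 (-0.083 without library C). PLPP1 was -0.039 with the mean GC trend removed, and LPIN2 -0.10 and AGPAT2 0.00039 with the GC trend removed and sh-NC replicate 2 left out. The usage test called 0 members in all settings. Adjusted p-values from edgeR, DESeq2 and limma ran from 0.0171 to 0.566 for PLD1 and from 0.0299 to 0.566 for GPD1L. With 22 counts of PLD1 in sh-NC replicate 2, its level there is the least precise.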
